A study of Homo sapiens with 9 samples.

Results

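The CDK inhibitors and the RB family were examined at the RNA level in MDA-MB-231 cells, an established human triple-negative breast cancer line, after depletion of AHR, the gene for the aryl hydrocarbon receptor (AhR), a ligand-activated transcription factor. The 10 genes, CDKN1A, CDKN1B, CDKN1C, CDKN2A, CDKN2B, CDKN2C, CDKN2D, RB1, RBL1 and RBL2, were taken by symbol from the 60649 rows of the deposited table of reads per gene. A group of 3 libraries carried the lentiviral control vector pLKO-GFP, another 3 carried the short hairpin RNA shAHR#2 and a further 3 carried shAHR#3, as the labels number them. Cells of all 3 groups had been transduced and selected with puromycin, and resistant cells were pooled rather than cloned. The labels enter the same treatment, "proliferation", for every library and give no drug, dose or time point. They do not state whether replicates came from separate cultures, so p-values measure only the spread between these libraries, which may be technical.

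Both gene families act on the decision to copy DNA. CDK inhibitors bind cyclin-dependent kinases (CDKs): the INK4 proteins p16 (CDKN2A, which also encodes p14ARF), p15 (CDKN2B), p18 (CDKN2C) and p19 (CDKN2D) inhibit CDK4 and CDK6, while the CIP/KIP proteins p21 (CDKN1A), p27 (CDKN1B) and p57 (CDKN1C) bind a wider range of cyclin-CDK complexes. The pocket proteins pRB (RB1), p107 (RBL1) and p130 (RBL2) bind E2F transcription factors and hold back genes of S phase until CDKs phosphorylate them. AhR is known to take part in this pathway in other cells through contacts with pRB and through CDKN1B, a described AhR target gene. Levels of mRNA are only part of the control of these proteins, since p21, p27 and the pocket proteins are also set by degradation and phosphorylation, which RNA sequencing does not measure.

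Total counts per library were 17407688 to 19509030 with pLKO-GFP, 15991396 to 19112459 with shAHR#2 and 19436825 to 20374460 with shAHR#3. The 14274 genes that passed the filter on low counts held 99.9% of all counts. AHR itself was at 114 to 121 CPM (read counts scaled to 1e+06 per library after TMM correction for composition) in the control, at 40.4 to 42.5 with shAHR#2 and at 44.5 to 52.1 with shAHR#3. The markers of this mesenchymal-like line (VIM, CD44, AXL, CAV1 and KRT18) were at about 297 CPM or more in every library, and of the receptor genes ESR1 had at most 4 reads and PGR none, while ERBB2 had 974 to 1550 reads (60.0 to 75.7 CPM). Of the markers of other cell types, CD3E had no reads in any library, DCN at most 1, PTPRC 1 to 33 and CD14 4 to 21. The leukocyte list summed to 1.02 to 1.16 CPM in control libraries, 1.14 to 2.20 CPM for shAHR#2 and 1.29 to 2.10 CPM for shAHR#3. Among the 3 endothelial markers, PECAM1 had 43 to 257 reads while CDH5 and VWF stayed under 1 CPM, and the summed level of the 3 ranged over 2.15 to 2.71 CPM in control libraries, 10.4 to 12.7 CPM for shAHR#2 and 12.0 to 13.3 CPM for shAHR#3. The 4 luminal epithelial markers summed to 114 to 121 CPM in control libraries, 178 to 195 CPM for shAHR#2 and 136 to 146 CPM for shAHR#3, and the 4 fibroblast markers, of which DCN and PDGFRA stayed under 1 CPM, to 5.49 to 7.85, 9.12 to 11.3 and 11.6 to 14.0 CPM. The part of these shifts in the results was not tested.

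Of the 10 genes, 8 had reads and all 8 passed the filter, whereas CDKN2A and CDKN2B had no read in any of the 9 libraries. With shAHR#2, 7 of the 8 tested genes passed the threshold (a Benjamini-Hochberg adjusted p under 0.05 in edgeR's quasi-likelihood test): 3 were higher (CDKN1A, CDKN1B and RB1) and 4 lower (CDKN2C, CDKN2D, RBL1 and RBL2). Over all genes tested, 65.8% passed in this comparison, 32.6% higher and 33.2% lower. With shAHR#3, 6 of 8 passed, 4 higher (CDKN1A, CDKN1B, CDKN2D and RB1) and 2 lower (RBL1 and RBL2), against 54.4% of all genes, 26.9% higher and 27.5% lower. The shares of called genes were thus high throughout the transcriptome, and the changes of most of the 8 genes were modest in size. Their median absolute log2 fold change was 0.21 with shAHR#2, where all tested genes had 0.32, and 0.24 with shAHR#3, where all had 0.23. None of the 8 reached an absolute log2 fold change of 1, which 11.8% of all genes did with shAHR#2 and 6.73% with shAHR#3 while passing the threshold. Both comparisons rest on the same 3 control libraries.

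**Figure D1:**
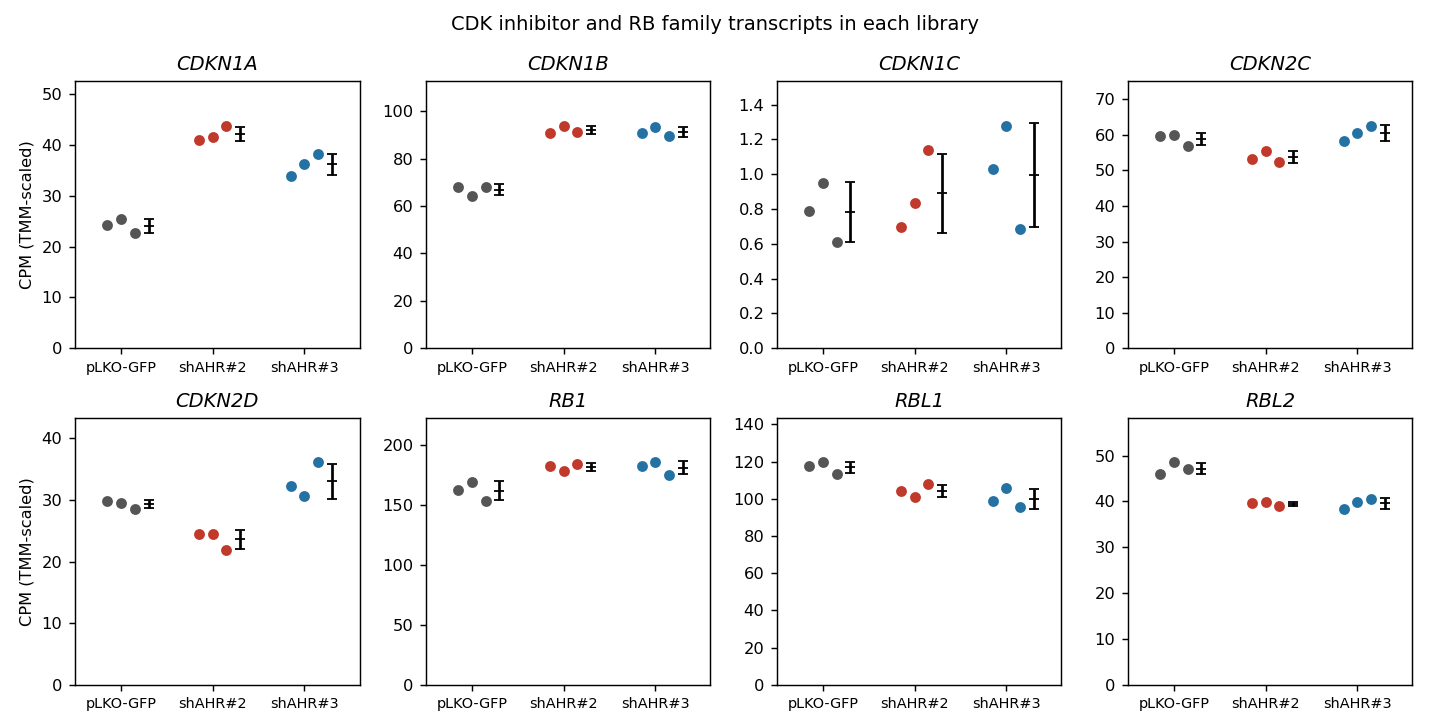
Level of each of the 8 detected genes in CPM (linear axis from 0, a scale of its own per gene) in the 3 pLKO-GFP, 3 shAHR#2 and 3 shAHR#3 libraries; points are libraries and the bar beside them is the mean with 1 SD. CDKN1A and CDKN1B sat above the control in all 6 AHR-depleted libraries, RBL1 and RBL2 sat below it in all 6, and CDKN2D lay below the control with shAHR#2 and above it with shAHR#3.

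CDKN1A (ENSG00000124762.14; chromosome 6 of GRCh38, 36676460 to 36687337, plus strand) encodes p21, an inhibitor of CDK2 complexes. Its level was 24.2, 25.4 and 22.7 CPM in the control libraries, 41.1, 41.6 and 43.8 CPM with shAHR#2 and 34.0, 36.3 and 38.2 CPM with shAHR#3. The 3 groups did not overlap, and every shAHR#2 library was above every shAHR#3 library. CDKN1A rose 1.75-fold with shAHR#2 (log2 fold change 0.81, standard error 0.06, adjusted p = 7.21e-14) and 1.50-fold with shAHR#3 (0.59, standard error 0.06, adjusted p = 4.89e-10). Its absolute change exceeded that of 82.9% of tested genes with shAHR#2 and of 83.4% with shAHR#3. The direct comparison put shAHR#3 lower than shAHR#2 by 0.22 on the log2 scale (95% interval -0.34 to -0.10 for the difference, adjusted p = 0.00280).

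CDKN1B (ENSG00000111276.12; chromosome 12, 12685498 to 12722369, plus strand) encodes p27, which restrains CDK2 in resting cells. It was counted at 68.1, 64.3 and 68.3 CPM in the control libraries, at 91.1, 94.0 and 91.4 CPM with shAHR#2 and at 91.0, 93.3 and 89.4 CPM with shAHR#3. All 6 AHR-depleted libraries were above all 3 controls. The rise was 1.38-fold with shAHR#2 (log2 fold change 0.46, standard error 0.04, adjusted p = 9.19e-13) and 1.36-fold with shAHR#3 (0.45, standard error 0.04, adjusted p = 2.54e-12). Between the constructs the difference was -0.01 on the log2 scale with a 95% interval of -0.09 to 0.06 (adjusted p = 0.804).

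CDKN1C (ENSG00000129757.15; chromosome 11, 2883213 to 2885775, minus strand), the gene of p57 and an imprinted locus, was counted at only 12 to 25 reads per library. Its log2 fold change was 0.17 with shAHR#2 (95% interval -0.57 to 0.91) and 0.34 with shAHR#3 (-0.36 to 1.04), and neither passed the threshold (adjusted p = 0.698 and 0.421). Changes of the size seen for CDKN1A lay inside the interval with either construct and could not be detected at this depth.

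The stretch just upstream of the transcription start is shown for the 2 CIP/KIP genes that rose with each construct and for RBL1, which fell, because AhR acts through a short DNA element and RBL1 is a described E2F target. Letters are those of RefSeq for GRCh38.p14 over the 250 bases before the annotated start, written 5′ to 3′ along the gene's strand. Capitals mark GCGTG, the core bound by AhR and its partner ARNT (read as CACGC where it lies on the opposite strand), and TTTNNCGC, a common form of the E2F site. CDKN1A lies at chr6:36678464-36678713 on the plus strand, CDKN1B at chr12:12717118-12717367 on the plus strand and RBL1 at chr20:37095998-37096247 on the minus strand.
CDKN1A: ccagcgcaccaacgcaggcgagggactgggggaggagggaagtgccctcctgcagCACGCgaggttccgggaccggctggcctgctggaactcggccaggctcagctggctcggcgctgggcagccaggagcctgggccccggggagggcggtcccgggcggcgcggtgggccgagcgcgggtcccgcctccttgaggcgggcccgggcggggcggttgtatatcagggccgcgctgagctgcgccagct
CDKN1B: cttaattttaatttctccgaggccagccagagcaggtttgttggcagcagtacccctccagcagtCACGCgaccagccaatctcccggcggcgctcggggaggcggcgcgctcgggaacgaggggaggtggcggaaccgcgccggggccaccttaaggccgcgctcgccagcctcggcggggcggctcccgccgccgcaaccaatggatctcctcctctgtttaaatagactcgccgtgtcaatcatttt
RBL1: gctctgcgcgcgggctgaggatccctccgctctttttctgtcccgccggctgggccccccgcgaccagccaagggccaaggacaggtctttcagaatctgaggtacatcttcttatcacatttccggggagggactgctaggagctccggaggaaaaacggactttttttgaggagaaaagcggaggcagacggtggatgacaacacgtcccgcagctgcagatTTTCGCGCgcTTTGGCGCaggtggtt

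In CDKN1A the window held 1 AhR core, on the opposite strand from base -195 to base -191 counted back from the start, and in CDKN1B it held 1, from -185 to -181 on the opposite strand. The core is short, and 32.2% of the 35116 windows of this length in the RefSeq table contained it on either strand. RBL1 had no AhR core in its window and had 2 E2F matches, from -26 to -19 and from -16 to -9, whereas 5.92% of all windows held any. The CDKN1A window was 76.4% G or C and held 4 matches to GGGCGG, the GC box bound by SP1, a match found in 42.6% of windows. CDKN2D (window not shown) had 2 AhR cores and 1 E2F match, and the core from -213 to -209 lay inside the E2F match from -216 to -209. CDKN2C, which fell with shAHR#2 and did not pass with shAHR#3, had 3 AhR cores and 6 GC boxes over its 3 listed windows, more than CDKN1A or CDKN1B. CDKN2A, without reads, had 2 AhR cores over its 2 windows, and CDKN2B had none. The only window listed for RB1, chr13:48476200-48476449, had none either and was 36.8% G or C. That window belongs to a start well inside the gene, which begins at 48303744. The stretch upstream of the whole RB1 gene was therefore not searched. The windows of CDKN1A and CDKN1B, and both of RBL2, also lay inside the gene bounds given here, before other annotated starts. RBL2 had neither match in its 2 listed windows, and CDKN1C had no entry. A match of letters is a description of the sequence, and binding was not measured here.

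Of the INK4 genes, CDKN2C and CDKN2D were detected. CDKN2C (ENSG00000123080.12; chromosome 1, 50960745 to 50974634, plus strand) encodes p18 and was at 59.8, 59.9 and 56.8 CPM in the control, 53.1, 55.6 and 52.4 CPM with shAHR#2 and 58.3, 60.6 and 62.6 CPM with shAHR#3. The shAHR#2 libraries lay below the other groups, which overlapped each other. The fall with shAHR#2 was 0.13 in size (log2 fold change -0.13, standard error 0.05, adjusted p = 0.0144). The call was lost when 1 of 3 libraries was left out: without pLKO-GFP replicate 2, shAHR#2 replicate 1 or shAHR#2 replicate 3 the adjusted p was 0.0553, 0.0579 or 0.0702. With shAHR#3 the value was 0.04 (adjusted p = 0.453, 95% interval -0.05 to 0.13), and the direct comparison placed shAHR#3 higher than shAHR#2 by 0.17 (adjusted p = 0.00255).

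CDKN2D (ENSG00000129355.7; chromosome 19, 10566460 to 10569059, minus strand) encodes p19, the INK4 protein whose level is known to rise in S phase. Control libraries had 29.9, 29.6 and 28.6 CPM, shAHR#2 libraries 24.5, 24.5 and 21.9 CPM and shAHR#3 libraries 32.3, 30.7 and 36.1 CPM. The 3 groups did not overlap, with shAHR#2 lowest and shAHR#3 highest. CDKN2D fell with shAHR#2 (log2 fold change -0.31, standard error 0.07, adjusted p = 2.39e-04) and rose with shAHR#3 (0.17, standard error 0.07, adjusted p = 0.0267). The rise did not pass the threshold in DESeq2 (adjusted p = 0.0584) or when pLKO-GFP replicate 2 or 3 was left out (0.0517 and 0.0971), and without shAHR#3 replicate 3, the highest library, it was 0.10 (adjusted p = 0.225). The difference of the constructs was the largest of the 8 genes, 0.48 on the log2 scale (95% interval 0.34 to 0.62, adjusted p = 3.89e-07).

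In the direct comparison of shAHR#3 with shAHR#2, 3 of the 8 genes passed the threshold, CDKN2C and CDKN2D being higher and CDKN1A lower. Over all genes 42.3% passed, 21.9% higher and 20.4% lower. The median absolute difference of the 8 genes was 0.11 on the log2 scale and that of all tested genes 0.18. For CDKN1B, RB1, RBL1 and RBL2 the difference of the constructs did not pass, with 95% intervals that stayed between -0.14 and 0.11. With the constructs averaged and set against pLKO-GFP, 5 of 8 passed, CDKN1A, CDKN1B and RB1 being higher and RBL1 and RBL2 lower, where 64.3% of all genes passed, 31.5% higher and 32.9% lower. CDKN2C and CDKN2D averaged to -0.04 and -0.07 (adjusted p = 0.335 and 0.314). A log2 fold change of at least 1 was reached by none of the 8 in these comparisons either, and by 3.71% and 8.25% of all genes.

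**Figure D2:**
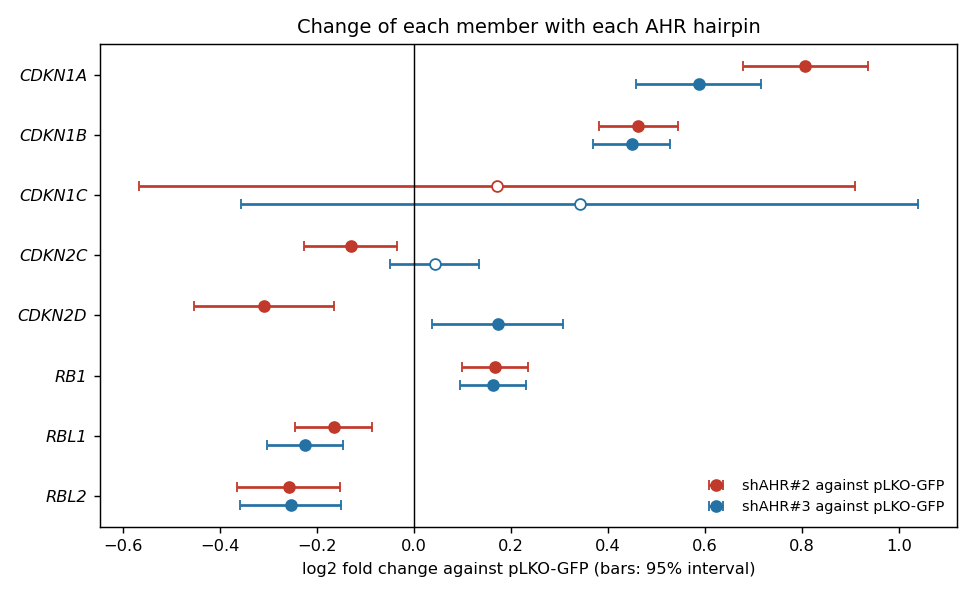
Log2 fold change of the 8 tested genes against pLKO-GFP (horizontal axis; bars are 95% intervals) with shAHR#2 in red and shAHR#3 in blue; filled points passed an adjusted p of 0.05 and open points did not. The points of CDKN2D fall on opposite sides of 0, -0.31 and 0.17, and the wide bars of CDKN1C reflect its 12 to 25 reads per library.

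Separation of the libraries was also counted. With shAHR#2, 7 of the 8 genes had no overlap in CPM with the control, where 68.2% of all tested genes had none, and with shAHR#3 6 of 8 had none, where 58.7% of all did. Between the constructs 3 of 8 did not overlap, against 49.6% of all genes.

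The pocket protein genes moved in different directions with small standard errors. RB1 (ENSG00000139687.16; chromosome 13, 48303744 to 48599436, plus strand), the retinoblastoma tumor suppressor, was at 162, 170 and 154 CPM in the control, 183, 178 and 184 CPM with shAHR#2 and 183, 186 and 175 CPM with shAHR#3. Its lowest AHR-depleted library was above its highest control. RB1 rose by 0.17 on the log2 scale with shAHR#2 (standard error 0.03, adjusted p = 5.20e-05) and by 0.16 with shAHR#3 (standard error 0.03, adjusted p = 8.27e-05). Both amount to a rise of 1.12-fold.

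RBL1 (ENSG00000080839.12; chromosome 20, 36996349 to 37095997, minus strand) encodes p107, the pocket protein of cycling cells. It was at 117, 120 and 113 CPM in the control, 104, 101 and 108 CPM with shAHR#2 and 98.6, 106 and 95.5 CPM with shAHR#3, and no depleted library reached the lowest control. RBL1 fell by 0.17 (log2 fold change -0.17, standard error 0.04, adjusted p = 3.19e-04) and by 0.23 (-0.23, standard error 0.04, adjusted p = 4.72e-06).

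RBL2 (ENSG00000103479.17; chromosome 16, 53433977 to 53491648, plus strand) encodes p130, which forms the DREAM repressor with MuvB proteins in resting cells. Its control libraries had 46.0, 48.5 and 47.0 CPM, its shAHR#2 libraries 39.6, 39.8 and 38.9 CPM and its shAHR#3 libraries 38.3, 39.8 and 40.6 CPM. The depleted groups overlapped each other and lay wholly below the control. The log2 fold change was -0.26 with shAHR#2 (standard error 0.05, adjusted p = 4.79e-05) and -0.25 with shAHR#3 (standard error 0.05, adjusted p = 6.13e-05). Exons of RBL2 share 609 bases with AKTIP on the other strand, which had 213 to 351 reads per library and was also lower (-0.31 and -0.27, adjusted p = 0.00496 and 0.0140). Whether the counting used strand is not given in the sources used here, so reads of the shared bases cannot be assigned. The other exon overlaps of the 10 genes were with transcripts of at most 7 reads per library.

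Per length of the canonical transcript (RPKM, CPM divided by the length in kilobases), RB1 held 52.9% ± 0.665 (SD, n = 3) of the summed level of the 3 pocket protein genes in the control, RBL1 32.0% ± 0.362 and RBL2 15.1% ± 0.451. With shAHR#2 the shares were 59.0% ± 0.133, 28.4% ± 0.449 and 12.6% ± 0.368, and with shAHR#3 59.6% ± 0.592, 27.6% ± 0.639 and 12.8% ± 0.622 (SD, n = 3 each). The RB1 share was 52.1% to 53.4% in the control libraries and at least 58.9% in every depleted library. In bulk RNA, a shift in the share of cells in a given state and a shift in RNA per cell cannot be told apart.

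Among the CIP/KIP genes, CDKN1B was the most abundant per length in the control, at 27.7 ± 0.926 RPKM, with CDKN1A at 11.4 ± 0.646 and CDKN1C at 0.441 ± 0.0963 RPKM (SD, n = 3). The ratio of CDKN1B to CDKN1A was 2.22 to 2.64 in the control libraries, 1.83 to 1.98 with shAHR#2 and 2.06 to 2.35 with shAHR#3. Thus only shAHR#2 lay wholly outside the control range for this ratio. The order of these 2 genes depends on the transcript length used: with the length of all annotated exons, which is 9255 bases for CDKN1B, it was 7.23 RPKM for CDKN1B and 8.04 RPKM for CDKN1A. CDKN2C, at 59.1 ± 1.78 RPKM over its canonical transcript of 995 bases and 19.5 RPKM over all exons, ranked highest of the 10 by the former and level with CDKN2D and RBL1 by the latter. By canonical length RB1 followed at 34.0 RPKM, CDKN2D at 20.6 and RBL1 at 20.5 overlapped, and RBL2 was at 9.72 RPKM. Over all exons RB1 ranked highest in the control, at 25.2 RPKM.

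CDKN2A (ENSG00000147889.18; chromosome 9, 21967752 to 21995301, minus strand) and CDKN2B (ENSG00000147883.12; chromosome 9, 22002903 to 22009305, minus strand) had 0 reads in each of the 9 libraries. Over the 166949360 reads counted, 0 allows up to 3 counts, or 0.0180 CPM, a limit that covers counting error only. MDA-MB-231 is known as a line with a homozygous loss of CDKN2A, but RNA counts do not measure DNA. Genes within 1 Mb were read as well, 60 in all with CDKN2A and CDKN2B themselves among them. Of the 60, 56 had no read in any library, and so did 22 of the 23 protein-coding ones. Both counts without reads include CDKN2A and CDKN2B. MTAP, a metabolic gene that most tissues express and the nearest protein-coding neighbor on one side, had 0 reads, as had KLHL9 and HACD4. DMRTA1 and the type I interferon genes of this cluster, IFNB1 among them, also had none. Such interferon genes are silent in many resting cells. The cause of the absent reads was not tested for any of these genes.

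The exceptions near CDKN2A were few. FOCAD, at the edge of the window, had 33 to 54 reads per library (2.39 CPM). The processed pseudogenes CLIC4P1 and KHSRPP1 had 30 and 7 reads over all libraries, and CDKN2B-AS1, the antisense RNA across CDKN2B, had 1 read. No INK4 transcript from this locus was therefore available for comparison between the control and the AHR-depleted cells.

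**Figure D3:**
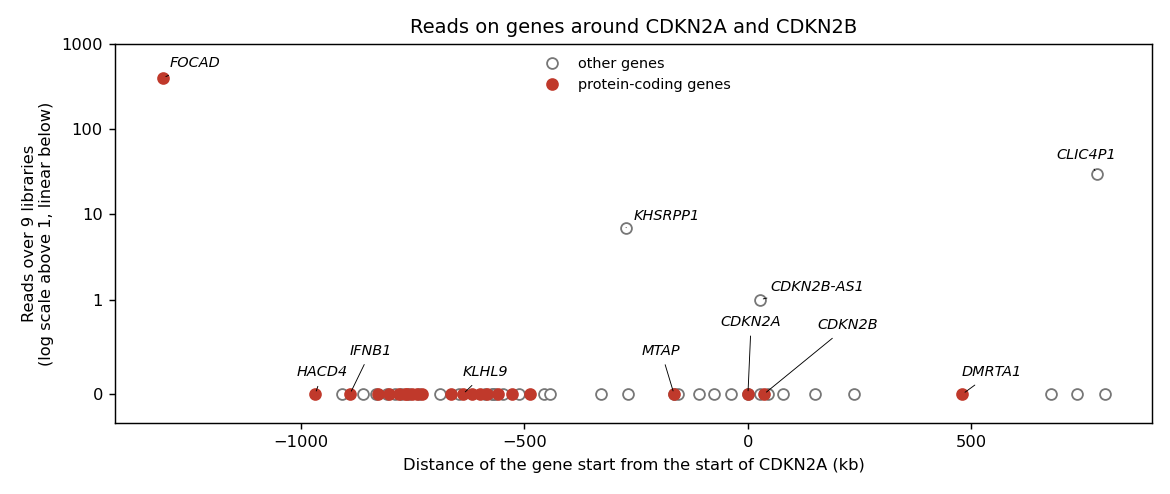
Reads summed over the 9 libraries (vertical axis, log scale above 1 and linear below) for each gene within 1 Mb of CDKN2A and CDKN2B, placed by the distance of its start from that of CDKN2A in kb; filled points are protein-coding genes and open points all others. Of the 23 protein-coding genes, CDKN2A and CDKN2B included, only FOCAD, at the left edge with 398 reads, had any.

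Genes that lie near each other can move together, so each gene was set beside the 50 tested genes on either side of it on its chromosome. CDKN1A stood apart from its neighbors, whose median log2 fold change was -0.12 with shAHR#2 (quartiles -0.31 and 0.03) and -0.15 with shAHR#3 (-0.26 and 0.00). CDKN1B did not: its 100 neighbors on chromosome 12 had a median of 0.39 with shAHR#2 (quartiles 0.08 and 0.65) and 0.28 with shAHR#3 (0.03 and 0.54), and CDKN1B lay between the quartiles with each. The difference of CDKN1B from the median of its neighbors was 0.07 with shAHR#2 and 0.16 with shAHR#3.

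RBL1 likewise lay between the quartiles of its chromosome 20 neighbors, whose medians were -0.29 and -0.15, and RB1 lay between those of its chromosome 13 neighbors, whose medians were 0.08 and 0.03. RBL2 had neighbors with medians of -0.03 and -0.02 and lay near their lower quartile, -0.28 with shAHR#2 and -0.25 with shAHR#3. CDKN2D was below the lower quartile with shAHR#2 (-0.31, with quartiles of -0.21 and 0.30) and between the quartiles with shAHR#3. In all, 6 of the 8 genes were between the quartiles of their neighbors with shAHR#2 and 5 with shAHR#3. Quartiles by definition enclose as many neighbors as they leave outside. The share of all tested genes between such quartiles was not computed, so these counts are a description only. The part of chromosomal position in these changes was not tested.

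**Figure D4:**
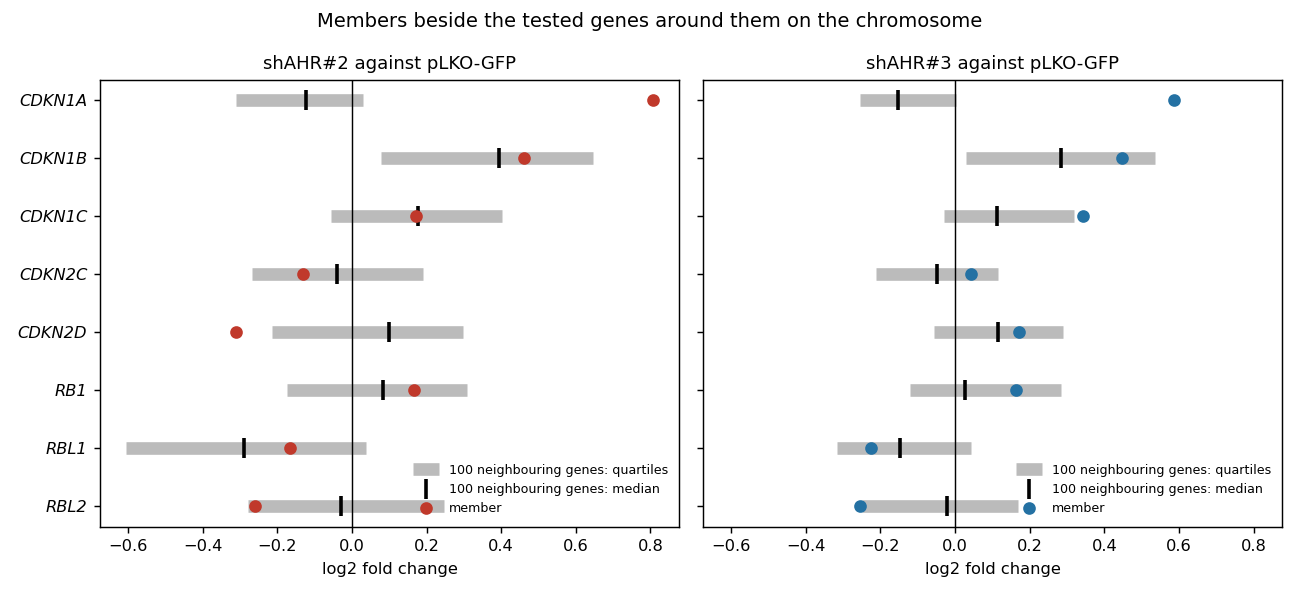
Log2 fold change against pLKO-GFP (horizontal axes) of each tested gene (point) beside the 100 tested genes around it on its chromosome, whose quartiles are the grey bar and whose median is the black tick; shAHR#2 on the left, shAHR#3 on the right. CDKN1A lies far to the right of its neighbors in both panels, while CDKN1B lies inside a bar that is itself shifted to the right.

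The kinases that these inhibitors bind, and their cyclins, formed a list of 14 genes, of which 7 rose and 5 fell with shAHR#2 (median log2 fold change 0.08) and 6 rose and 3 fell with shAHR#3 (0.02), where the median of all tested genes was -0.00 with each. The counts of this and the following lists stand against all tested genes, of which 32.6% rose and 33.2% fell with shAHR#2 and 26.9% rose and 27.5% fell with shAHR#3. CDK6, a target of INK4 proteins, was at 239 ± 10.2 CPM in control libraries and rose to 430 ± 11.5 with shAHR#2 and 346 ± 16.4 CPM with shAHR#3 (SD, n = 3; log2 fold changes 0.85 and 0.54, adjusted p = 2.01e-23 and 7.26e-17). CDK4, its close relative, changed little (0.08 with shAHR#2, adjusted p = 0.0309; -0.02 with shAHR#3, adjusted p = 0.597). CCND1, the main D-type cyclin here at 827 CPM in the control, rose by 0.36 and 0.13 (adjusted p = 1.41e-15 and 3.20e-05). CCND1 was above the upper quartile of its chromosome 11 neighbors with shAHR#2 and between their quartiles with shAHR#3. CCND2, counted at 17 to 23 reads per control library, had the largest rise of the list, to 15.8 ± 1.13 CPM with shAHR#2 and 4.07 ± 0.374 with shAHR#3 from 0.990 ± 0.146 (log2 fold changes 3.99 and 2.03, adjusted p = 7.10e-23 and 3.23e-11). CDK2, the kinase restrained by p27, rose by 0.38 and 0.39 and lay on chromosome 12 between the quartiles of its neighbors. CCNE1, the cyclin partner of CDK2, did not pass (0.08 and 0.03, adjusted p = 0.384 and 0.743). CCNH, a subunit of the CDK-activating kinase, fell by 0.58 and by 0.48 (log2 fold changes -0.58 and -0.48), with neighbors on chromosome 5 at medians of -0.42 and -0.25.

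Among the 10 E2F and DP factors, the partners of the pocket proteins, 3 rose and 4 fell with shAHR#2 (median -0.10) and 1 rose and 3 fell with shAHR#3 (0.04). E2F1, the activator bound by pRB, fell from 98.5 ± 1.96 CPM to 52.7 ± 1.43 and 69.8 ± 6.11 (SD, n = 3; log2 fold changes -0.90 and -0.49, adjusted p = 7.49e-19 and 6.85e-12). Its neighbors on chromosome 20 had medians of -0.39 and -0.16, and E2F1 was below their lower quartile with each construct. E2F5, a repressor E2F bound by p130, fell most (-1.33 and -1.08, adjusted p = 3.20e-14 and 3.05e-12), and E2F3 rose most (0.32 and 0.17, adjusted p = 2.48e-09 and 1.76e-04). E2F4, the other main partner of p130, rose with shAHR#2 (0.29, adjusted p = 1.52e-05) and did not pass with shAHR#3 (0.05, adjusted p = 0.415). The 9 MuvB and MYB genes included 1 that rose and 5 that fell with shAHR#2 and 2 and 4 with shAHR#3 (medians -0.12 and -0.07). MYBL2 (B-MYB) was the largest rise with values of 0.23 and 0.56, and MYBL1 (A-MYB) had the largest mean fall of those called with each construct, at -0.48 and -0.43.

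Of 30 E2F target genes of DNA replication, 15 rose and 13 fell with shAHR#2 (median 0.08), and 9 rose and 14 fell with shAHR#3 (median -0.04). CHAF1A, a histone chaperone subunit, had the largest fall for the mean of both constructs (-0.78 and -0.45). Over all tested genes 32.6% rose and 33.2% fell in the shAHR#2 comparison, 65.8% in all, and 26.9% rose and 27.5% fell in that of shAHR#3, 54.4% in all.

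Turnover of p21 and p27 depends on ubiquitin ligases, and 10 genes of this machinery split into 5 that rose and 4 that fell with shAHR#2 and into 4 and 5 with shAHR#3 (medians 0.06 and 0.01). SKP2, which recruits p27 to the SCF ligase, fell from 63.6 ± 2.23 CPM to 23.5 ± 1.57 CPM with shAHR#2 and 37.2 ± 1.13 CPM with shAHR#3 (SD, n = 3; log2 fold changes -1.44 and -0.78, adjusted p = 1.29e-22 and 2.26e-15). Its neighbors on chromosome 5 had medians of -0.62 and -0.37, and SKP2 was below their lower quartile with each construct. CKS1B, the cofactor of SKP2, rose by 0.21 and 0.16 (adjusted p = 2.72e-05 and 7.36e-04), and RNF123, a ligase for p27, rose by 0.16 and 0.25 (adjusted p = 0.0177 and 3.83e-04). The chromosome 1 neighbors of CKS1B had medians of 0.19 and 0.22, and CKS1B lay between their quartiles with each construct. RNF123 lay between the quartiles of its neighbors with shAHR#2 only.

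Of 24 regulators described for the inhibitor genes, 11 rose and 7 fell with shAHR#2 (median 0.12), and 11 rose and 3 fell with shAHR#3 (median 0.15), beside shares of all genes of 32.6% and 33.2% for shAHR#2 and 26.9% and 27.5% for shAHR#3. KLF4, an activator of CDKN1A in other cells, rose from 19.9 ± 1.54 CPM to 63.4 ± 4.71 and 46.9 ± 1.76 (SD, n = 3; log2 fold changes 1.67 and 1.24, adjusted p = 1.68e-23 and 8.49e-19). MYC, known as a repressor of CDKN1A, rose by 0.39 and 0.21 (adjusted p = 2.37e-11 and 1.37e-05). Its neighbors on chromosome 8 had medians of 0.27 and 0.22, and MYC lay between their quartiles with each construct. SMAD2, which carries TGF-beta signals to several inhibitor genes, had the largest mean fall among those called with each construct (-0.53 and -0.32, adjusted p = 2.99e-14 and 6.30e-09). The chromosome 18 neighbors of SMAD2 had medians of -0.17 and -0.20. SMAD2 was below their lower quartile with shAHR#2 and between their quartiles with shAHR#3.

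**Figure D5:**
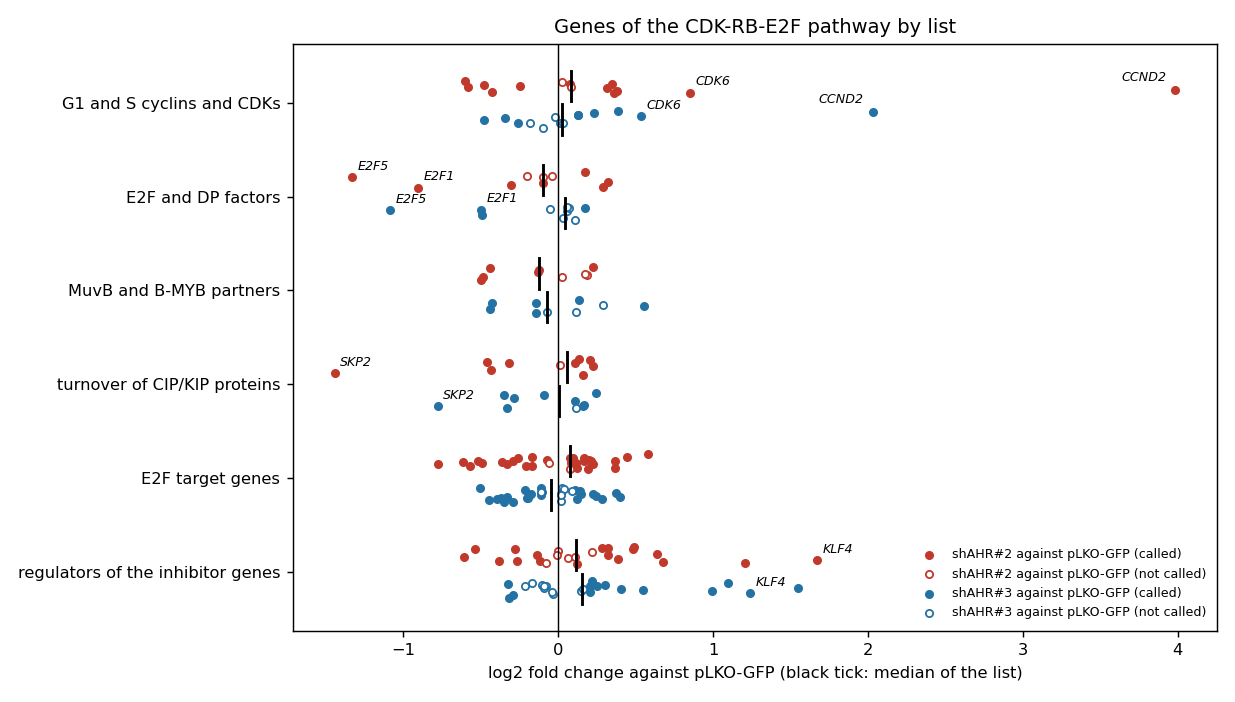
Log2 fold change against pLKO-GFP (horizontal axis) of every tested gene of 6 lists around the CDK-RB-E2F pathway, with shAHR#2 in red above and shAHR#3 in blue below; filled points passed an adjusted p of 0.05 and the black tick is the median of the list. Medians lie between -0.12 and 0.15, with single genes such as CCND2, KLF4, SKP2 and E2F5 far from them.

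The genes whose pattern over the 9 libraries was most like that of CDKN1A, by Pearson's r of log2 CPM among 11833 genes, were STAT6 (0.995), SHC1 (0.994) and AK5 (0.992). For CDKN1B they were MEGF6 (0.997), PDZD2 (0.996) and GAB2 (0.994). With 3 groups of 3 libraries such values mostly follow the group means, and they are given as a description.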

How the data were processed

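RNA sequencing covered 9 MDA-MB-231 libraries in 3 groups of 3. The authors prepared stranded mRNA libraries from 500 ng of total RNA, read 1 end of each fragment on a NextSeq, used STAR for alignment to GRCh38.p13, and deposited raw counts of reads per gene. The submitters' processing notes also name FastQC, Subread and featureCounts; versions, annotation release and strand setting are not given in the sources used here.

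Counts were analysed with R 4.3.3 and edgeR 4.0.16 (limma 3.58.1): filterByExpr (minimum count 10, minimum total count 15), TMM scaling, and glmQLFit and glmQLFTest on all 9 libraries with a mean per group. This quasi-likelihood test was adjusted by Benjamini-Hochberg over 14274 genes, with a threshold of 0.05, and its standard errors come from the F statistic. Intervals are 95%. Fits were tested on simulated data. Replicate libraries were not copies of each other (chi-square of their counts per degree of freedom 1.75 to 4.15), and the common biological coefficient of variation was 2.96%. Members and gene lists were chosen with earlier results of these data known. Named genes were the 10 members, 12 preset pathway genes and, in each of 7 lists, the largest rise and largest fall called with each construct at a mean of 20 or more counts; a few of these genes and 1 list are not reported here. Lengths and positions are from GENCODE release 44, and promoter sequences from RefSeq (9 of 10 members matched). RB1 matched only at a start well inside the gene. All listed windows of CDKN1A, CDKN1B and RBL2 also lay inside the GENCODE bounds of the gene. Motifs were searched on both strands. Levels over all annotated exons, and the comparison with chromosomal neighbors, were added after the data were seen.

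Alternatives were DESeq2 1.42.0, DESeq2 size factors, no filter, a filter at a mean of 50 counts, a fit of 2 groups alone, a block for the replicate number, omission of each library in turn, an adjusted p under 0.01 and an absolute log2 fold change of at least 1. Figures were drawn with Python 3.11.15 and matplotlib 3.10.9.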

Additional observations from a re-analysis of the deposited data

Results flagged for a closer look

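Direct comparison of the 2 hairpins flagged 3 genes whose level differed between them. CDKN1A was lower with shAHR#3 than with shAHR#2 by 0.22 on the log2 scale (difference -0.22, adjusted p = 0.00280 in edgeR's quasi-likelihood test), having risen with each. CDKN2C was higher with shAHR#3 by 0.17 (adjusted p = 0.00255) and CDKN2D by 0.48 (adjusted p = 3.89e-07). All 3 shAHR#3 libraries lay on the same side of all 3 shAHR#2 libraries for each of these genes. Such a separation was found for 49.6% of all tested genes. AHR itself was at 40.4 to 42.5 CPM with shAHR#2 and 44.5 to 52.1 CPM with shAHR#3. The part of the AHR level in these differences was not tested, nor was that of other effects of each hairpin or cell pool.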

How the results depend on the processing

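Calls of the 8 tested genes numbered 7 with shAHR#2, 6 with shAHR#3, 5 with the constructs averaged and 3 between the constructs. The shares of all tested genes that passed were 65.8%, 54.4%, 64.3% and 42.3% in the same order. Counts of calls among the 8 genes stayed within 1.5 times under every alternative but 1. An added absolute log2 fold change of at least 1 brought each of the 4 counts to 0 in edgeR, and to 0 in DESeq2 as well as at an unadjusted p under 0.05, since the largest absolute value was 0.81. No gene that passed the threshold changed sign under any of these alternatives. Among the values of single genes, 448 kept their direction and side of the threshold, 12 changed sign while short of the threshold both ways, 7 lost the call and 1 gained it: the fall of CDKN2C with shAHR#2 and the rise of CDKN2D with shAHR#3 accounted for the 7, and the difference of RBL1 between the constructs passed without shAHR#3 replicate 2 (-0.10, adjusted p = 0.0472). Of the 12, 9 came from leaving out 1 library, which moved the value of CDKN1C with shAHR#2 between -0.037 and 0.34 (-0.037 without shAHR#2 replicate 3) and the differences between the constructs of CDKN1C between -0.049 and 0.39 (-0.049 without shAHR#3 replicate 2), of CDKN1B between -0.031 and 0.0024, of RB1 between -0.022 and 0.021 and of RBL2 between -0.015 and 0.028. The other 3 were differences close to 0, of RB1 with no filter on low counts (0.0011) and of RBL2 in DESeq2 (-0.0011) and with DESeq2 size factors (-0.0010). The cause was not tested. With the replicate number as a block the counts were 7, 6, 5 and 3, and calls over all genes went from 9390 to 9406 with shAHR#2 and from 7771 to 7844 with shAHR#3. Deviations of libraries that share a number correlated at -0.04 to 0.07, and 4 of 9 libraries correlated best with their own number in each other group. These values do not settle whether the numbers pair the libraries. The main fit took them as unpaired, and the block left the counts of calls among the 8 genes unchanged. The filter at a mean of 50 counts removed CDKN1C, which has no value there. Depth limits CDKN1C, at 12 to 25 reads, and places CDKN2A and CDKN2B under 0.0180 CPM. RPKM over all exons moved every level per length, as given for CDKN1B and CDKN2C.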

Other observations

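Among genes of the pathway outside the naming rule, and chosen after its values were seen, CCND3 fell with shAHR#2 (log2 fold change -0.60, adjusted p = 6.73e-15 from edgeR) and had a value of 0.01 with shAHR#3 (adjusted p = 0.831). The difference between the constructs was 0.61 (adjusted p = 1.29e-14). FOXM1, a partner of the MuvB complex in late cell cycle, had values of 0.02 and 0.14 (adjusted p = 0.432 and 3.75e-05), and was also chosen after its values were seen.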
